A study of Urocitellus parryii with 3 samples.

Results

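The data described here are the reads of 3 microRNAs (miRNAs) that are best known from the nervous system, miR-124-3p, miR-9-5p and miR-128-3p, in small RNA libraries made from livers of a hibernating rodent, Urocitellus parryii, the arctic ground squirrel. A read was counted as one of these miRNAs when it shared the first 18 bases with the mature form, and each distinct read was counted once per stage. They made up 1408 of the 576915 distinct reads and 3 of the 104 listed miRNAs that had a read. The groups were early arousal (4 animals, hibernation season, 4 h light and 20 h dark), late torpor (4 animals, the same light cycle) and post-reproduction (6 summer animals at normal body temperature, 16 h light and 8 h dark). Hibernating animals had passed through at least 4 torpor bouts and, per the labels, were killed on day 4 of a bout, which the labels do not explain for early arousal. Post-reproduction animals were anaesthetised first. Equal amounts of RNA from the animals of each stage went into 1 library, so the stage, the light cycle, the anaesthesia and the library itself cannot be told apart, no spread between animals could be measured and no test across replicates was possible. Intervals below are 95% intervals that cover counting error only.

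A miRNA is cut from a hairpin precursor, loaded into an Argonaute protein and guides it to messenger RNAs that pair with the seed, bases 2 to 8 from its 5′ end. miR-124-3p is the abundant miRNA of mammalian neurons, where in mouse it represses transcripts of other cell types and the splicing regulator Ptbp1. miR-9 is made in neural progenitors and neurons, and in human cells its 5p arm targets REST and its 3p arm targets the REST partner CoREST. miR-128-3p is enriched in brain, and its genes lie in introns of R3HDM1 and ARPP21 in human and mouse. None of these is among the classic miRNAs of the hepatocyte, for which miR-122-5p is the standard marker.

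The most frequent inserts are shown because the level, the 3′ ends and the placement below all refer to them. They come from the deposited reads, are written 5′ to 3′ with T for U, and have the seed in capitals.
miR-124-3p, 21 nt: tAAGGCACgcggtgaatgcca
miR-124-3p, 22 nt with a last A: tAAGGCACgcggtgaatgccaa
miR-124-3p, 22 nt with a last T: tAAGGCACgcggtgaatgccat
miR-9-5p, 23 nt: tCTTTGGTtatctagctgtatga
miR-9-5p, 21 nt: tCTTTGGTtatctagctgtat
miR-128-3p, 21 nt: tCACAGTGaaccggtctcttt
miR-128-3p, 22 nt: tCACAGTGaaccggtctctttt
The 3 seeds differ from each other, and no other listed miRNA shares any of them.

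Each 18-base start was chosen as the most frequent one behind the first 9 letters, so the shares given next do not test identity. Of the reads that began with the first 9 letters of each mature form, the 18-base start held 99.8% for miR-124-3p, 99.3% for miR-9-5p and 99.8% for miR-128-3p. All miR-124-3p reads had 1 position, on the plus strand of scaffold 9489 from 40388 to 40408. All miR-128-3p reads also had 1 position, from 85435 to 85455 on the plus strand of GeneScaffold 245. miR-9-5p reads were placed at 3 positions at once, on the minus strand of GeneScaffold 2078 from 48634 to 48656 and on the plus strands of scaffold 10093 from 3456 to 3478 and scaffold 9856 from 7059 to 7081. The reads do not say which of these 3 copies made them. The genome build is not given in the sources used here, and annotation of these scaffolds was not used here.

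The libraries held 5611673 placed reads in early arousal, 5860476 in late torpor and 5614441 in post-reproduction. The hepatocyte marker miR-122-5p took 72.4%, 76.3% and 74.9% of them in that order of stages. The other arm of its hairpin, miR-122-3p, had 111, 77 and 73 reads. In early arousal against post-reproduction miR-122-5p stood at 0.804, while miR-122-3p stood at 1.27 with an interval that holds 1 (0.933 to 1.72). In contrast, miR-148a-3p, miR-192-5p and miR-194-5p, also known from liver, were listed at 0. Only placed reads are listed, and the starts of these miRNAs were not checked against a database, so a 0 need not mean absence. The 3 neural miRNAs together took 0.160%, 0.125% and 0.151%. Of the other cell types, the 3 erythroid miRNAs (miR-451a, miR-144-3p and miR-486-5p) all had reads and summed to 118 CPM in early arousal, 317 CPM in late torpor and 178 CPM in post-reproduction. The leukocyte miRNAs, 3 of 3 detected in early arousal and late torpor and 2 of 3 in post-reproduction, where miR-142-3p was at 0, summed to 53.0, 92.9 and 50.3 CPM in the same order. Nearly all of this sum was miR-142-5p, at 51.9, 90.4 and 47.7 CPM. By contrast, miR-223-3p was highest in post-reproduction, with only 6, 12 and 14 reads (0.926, 2.39 and 2.60 CPM). The single endothelial miRNA, miR-126-3p, had 7.41, 14.1 and 10.2 CPM. CPM values are counts per 1000000 reads, scaled by a trimmed mean of M-values (TMM), which is meant to reduce differences in library composition.

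All 3 neural miRNAs were present in every library at between 242 and 938 CPM, and their levels did not run in the same direction over the stages. miR-124-3p was lower in early arousal and in late torpor than in post-reproduction, miR-9-5p was highest in early arousal, and miR-128-3p differed least.

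miR-124-3p had 1587 reads (245 CPM) in early arousal, 1627 reads (324 CPM) in late torpor and 2109 reads (391 CPM) in post-reproduction. The 3 counting intervals did not overlap, from 233 to 257 CPM in early arousal, 308 to 340 CPM in late torpor and 375 to 408 CPM in post-reproduction. Early arousal stood at 0.626 times post-reproduction (interval 0.586 to 0.669), and late torpor at 0.828 times post-reproduction (0.775 to 0.883), and both stayed below 1 under every scaling tried. Early arousal stood at 0.757 times late torpor (0.706 to 0.811), but this last direction turned to 1.03 under plain CPM and 1.02 under scaling to all placed reads.

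miR-9-5p had 1908 reads (295 CPM) in early arousal, 1284 reads (256 CPM) in late torpor and 1305 reads (242 CPM) in post-reproduction. Only early arousal stood apart, with an interval from 281 to 308 CPM against 242 to 270 CPM in late torpor and 229 to 256 CPM in post-reproduction. Early arousal stood at 1.22 times post-reproduction (1.13 to 1.31) and at 1.15 times late torpor (1.07 to 1.24), and was higher than both under every scaling tried. Late torpor stood at 1.06 times post-reproduction with an interval that holds 1 (0.976 to 1.14), and the value fell below 1 under plain CPM (0.939), placed reads (0.943) and listed miRNAs (0.976).

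miR-128-3p was the most abundant of the 3, with 5495 reads (848 CPM) in early arousal, 4400 reads (876 CPM) in late torpor and 5058 reads (938 CPM) in post-reproduction. It ranked 21 by reads among the 102 listed miRNAs detected in early arousal and 21 among the 103 detected in late torpor. Early arousal stood at 0.904 times post-reproduction (0.870 to 0.939), which turned to 1.09 under plain CPM, 1.09 under placed reads and 1.03 under listed miRNAs. Late torpor stood at 0.933 times post-reproduction (0.896 to 0.972) and stayed below 1 under every scaling tried. Early arousal stood at 0.969 times late torpor (0.931 to 1.01), which turned to 1.31 under plain CPM, 1.30 under placed reads and 1.19 under listed miRNAs.

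**Figure D1:**
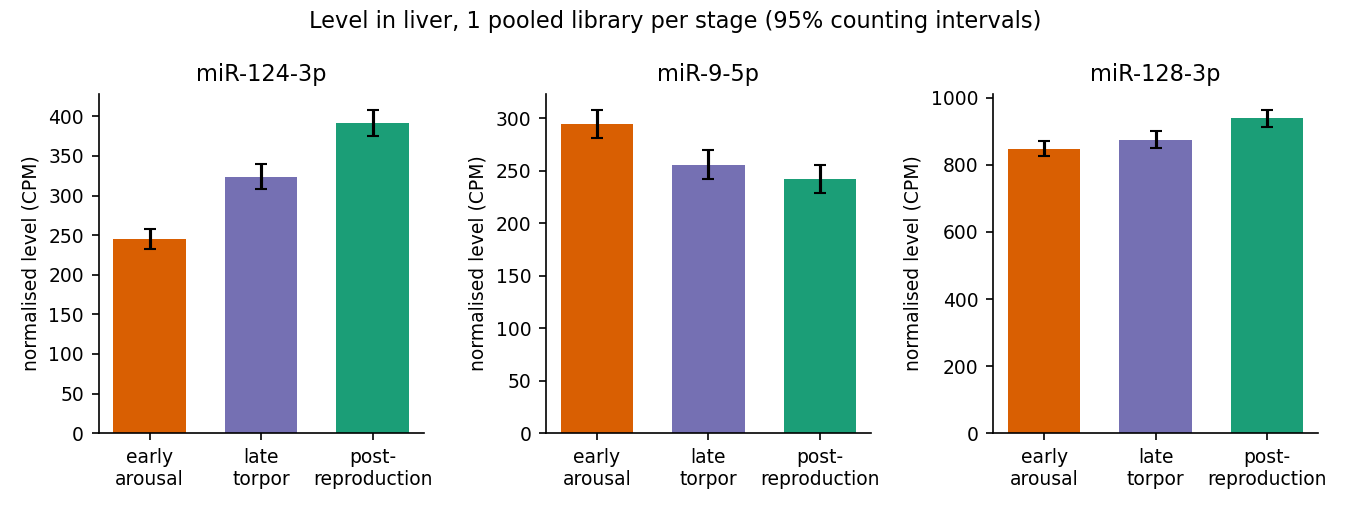
Level of each neural miRNA in CPM (TMM scaling) in the early arousal, late torpor and post-reproduction libraries, with exact Poisson 95% intervals as bars. miR-124-3p is lowest in early arousal at 245 CPM (under plain CPM late torpor is lowest), miR-9-5p is highest there at 295 CPM, and miR-128-3p lies between 848 and 938 CPM in all 3 libraries.

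At a limit of 1.5-fold either way, only 1 of these 9 ratios passed, that of miR-124-3p in early arousal against post-reproduction. In that comparison 44.3% of the families of reads with the same first 18 bases and at least 100 reads passed the same limit, as did 25.6% of listed miRNAs, so 1 of 3 members is near the background. None of the 3 passed in late torpor against post-reproduction, where 49.8% of families and 13.9% of listed miRNAs did, or in early arousal against late torpor, where 36.7% of families and 17.7% of listed miRNAs did. The miR-124-3p ratio missed the limit under plain CPM (0.755), placed reads (0.753) and listed miRNAs (0.714), and lay between 0.570 and 0.755 over the 8 alternatives. The miR-9-5p ratio of early arousal to late torpor passed the limit under plain CPM (1.56) and placed reads (1.55).

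The scaling placed the median listed miRNA at a log2 ratio of -0.16 for early arousal against post-reproduction (78 miRNAs), 0.06 for late torpor against post-reproduction (79) and -0.28 for early arousal against late torpor (79). Against post-reproduction, miR-124-3p in early arousal lay 0.51 below this median on the log2 scale, a log2 difference of -0.51, and ranked 66 of 78 from the highest. miR-9-5p lay above it by 0.44 in the same comparison, ranking 13, and miR-128-3p by 0.02, ranking 38. In late torpor against post-reproduction the differences from the median were -0.33 for miR-124-3p, 0.02 for miR-9-5p and -0.16 for miR-128-3p. In early arousal against late torpor they were -0.12 for miR-124-3p, 0.48 for miR-9-5p and 0.23 for miR-128-3p. The erythroid miRNAs, by contrast, were at the extremes of that last comparison, with miR-144-3p at 0.253 (rank 79 of 79), miR-486-5p at 0.309 and miR-451a at 0.462. Their part in the neural values was not tested.

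**Figure D2:**
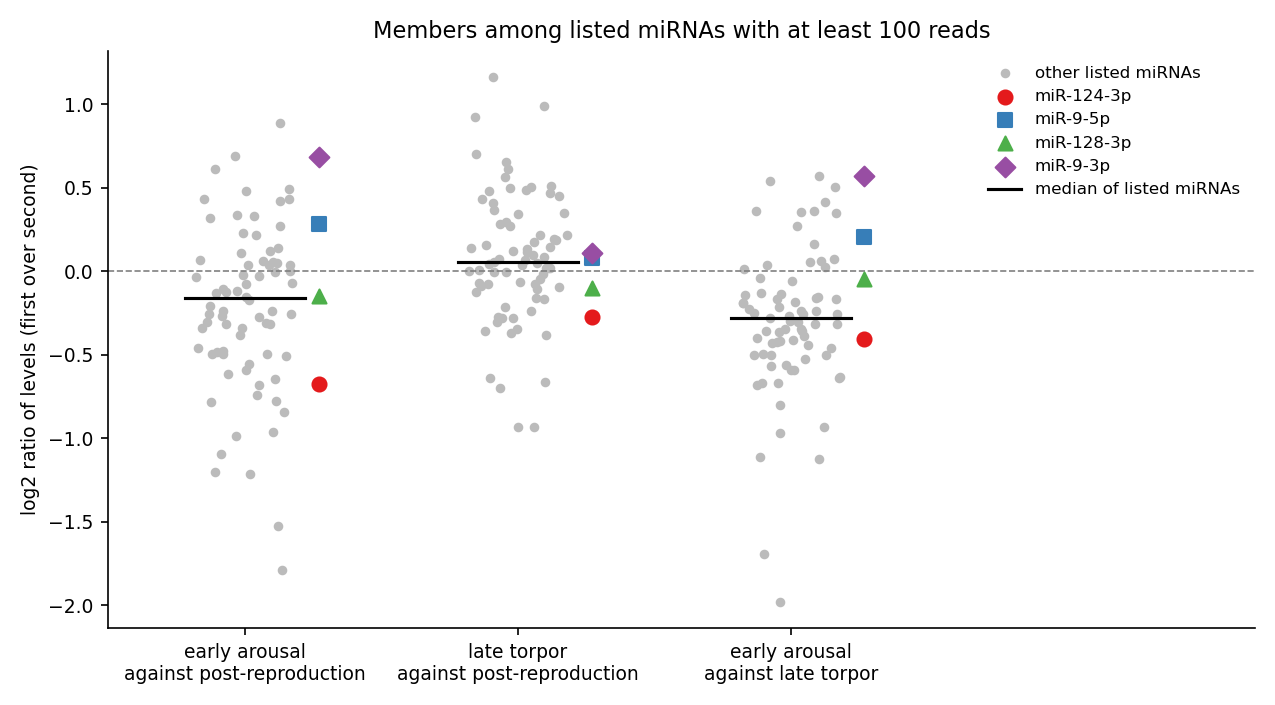
Log2 ratio of levels in each comparison for miR-124-3p, miR-9-5p, miR-128-3p and miR-9-3p (coloured symbols) and for the other listed miRNAs with at least 100 reads over both libraries (grey points), with the median of the listed miRNAs as a black line. miR-124-3p lies below the line and miR-9-5p above it in all 3 comparisons.

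Because the scaling changed several directions, the members were also set against each other inside each library, where no scaling enters. These ratios were chosen after the data were seen. miR-9-5p had 1.20 reads per miR-124-3p read in early arousal (1.12 to 1.29), 0.789 in late torpor (0.733 to 0.850) and 0.619 in post-reproduction (0.577 to 0.663). Thus miR-9-5p outnumbered miR-124-3p in early arousal only, and the 3 intervals did not overlap. The ratio was 1.94 times as high in early arousal as in post-reproduction (1.76 to 2.14), 1.28 times as high in late torpor as in post-reproduction (1.15 to 1.41) and 1.52 times as high in early arousal as in late torpor (1.38 to 1.68).

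miR-128-3p, the member with the most reads, sat between the other two. miR-9-5p per miR-128-3p read was 0.347 in early arousal, 0.292 in late torpor and 0.258 in post-reproduction. The order was the opposite for miR-124-3p, with 0.289 reads per miR-128-3p read in early arousal, 0.370 in late torpor and 0.417 in post-reproduction. Relative to miR-128-3p, early arousal against post-reproduction was thus 1.35 for miR-9-5p (1.24 to 1.46) and 0.693 for miR-124-3p (0.642 to 0.747). In bulk tissue, fewer cells of a type and less RNA per cell cannot be told apart, so these ratios do not say whether the 3 miRNAs came from the same cells.

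**Figure D3:**
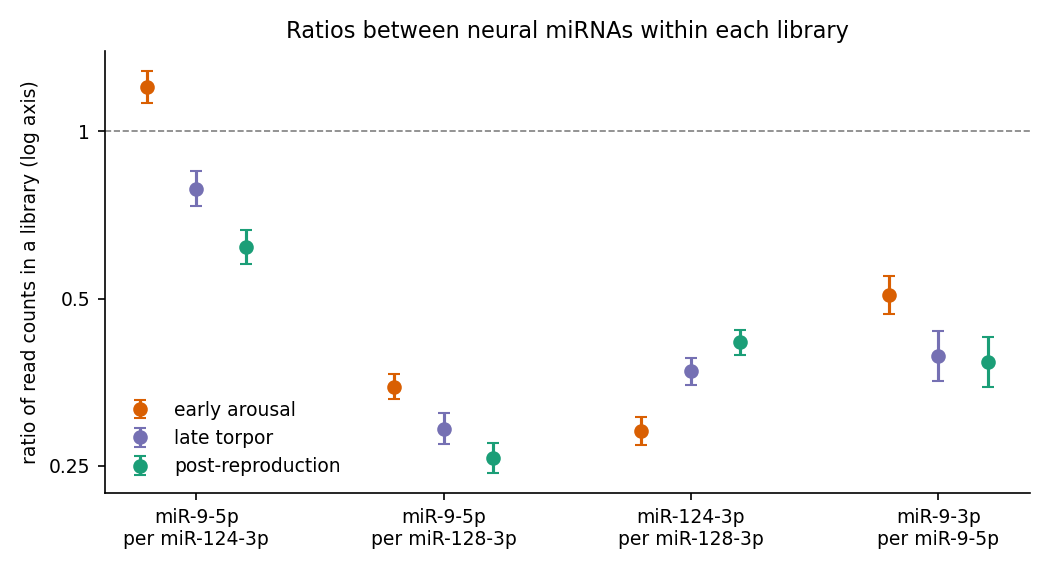
Ratio of the read counts of 4 pairs of miRNAs within each library on a log axis, with exact 95% intervals, for early arousal, late torpor and post-reproduction. miR-9-5p per miR-124-3p is 1.20, 0.789 and 0.619, and miR-9-3p per miR-9-5p is highest in early arousal at 0.508.

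The other arm of the miR-9 hairpin, miR-9-3p, was also present in every library and was highest in early arousal. Its 5′ end lay 39, 39 and 37 bases from that of miR-9-5p at the 3 positions, and its most frequent insert and the one that starts 1 base later, which has another seed, were these.
miR-9-3p, 22 nt: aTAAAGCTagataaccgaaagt
miR-9-3p, 1 base later, 22 nt: tAAAGCTAgataaccgaaagta
At the main start miR-9-3p had 970 reads (150 CPM) in early arousal, 506 reads (101 CPM) in late torpor and 502 reads (93.1 CPM) in post-reproduction. Early arousal stood at 1.61 times post-reproduction (1.44 to 1.79) and at 1.49 times late torpor (1.33 to 1.66), higher under every scaling tried, and late torpor at 1.08 times post-reproduction (0.954 to 1.23). With all starts added, there were 1287 reads in early arousal, 783 in late torpor and 745 in post-reproduction, which is 62.4%, 56.7% and 53.3% of the miR-9-5p reads of the same library. The ratio with all starts was 1.44 in early arousal against post-reproduction (1.31 to 1.58), under the 1.5-fold limit that the main start passed, 1.27 in early arousal against late torpor (1.17 to 1.40) and 1.13 in late torpor against post-reproduction (1.02 to 1.25). As a share of both arms, with all starts, miR-9-3p held 38.4% in early arousal (36.8% to 40.1%), 36.2% in late torpor (34.2% to 38.3%) and 34.8% in post-reproduction (32.8% to 36.8%), so the intervals overlapped. Counting the main start of each arm only, miR-9-3p per miR-9-5p read was 1.32 times as high in early arousal as in post-reproduction (1.16 to 1.51) and 1.29 times as high in early arousal as in late torpor (1.13 to 1.47).

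The other arms of miR-124 and miR-128 were close to absent. miR-124-5p had 16 reads in early arousal, 10 in late torpor and 4 in post-reproduction over all starts, or 0.840%, 0.525% and 0.165% of the miR-124-3p reads. Its reads were placed 38 bases before miR-124-3p on scaffold 9489 and also on scaffold 137193 from 73868 to 73889, where no miR-124-3p read was placed. At the main start, early arousal had 16 reads against 4 in post-reproduction, a ratio of 3.33 with an interval from 1.07 to 13.7, while the intervals of late torpor against post-reproduction (0.674 to 10.7) and of early arousal against late torpor (0.574 to 3.54) hold 1. miR-128-5p had 4, 1 and 1 reads, 35 bases before miR-128-3p, and the intervals of all its ratios hold 1.

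Of the 22 miRNAs of the neural list, 14 had at least 1 read and 12 had at least 10 in all. Besides miR-9-5p and miR-9-3p, 3 others that reached 100 reads in a pair of libraries had their highest level in early arousal. miR-138-5p, known from dendritic spines in rat, had 715, 431 and 426 reads in early arousal, late torpor and post-reproduction, a ratio of 1.40 in early arousal against post-reproduction (1.24 to 1.58). miR-129-5p, which is enriched in brain, had 179, 109 and 106 reads, with a ratio of 1.41 (1.10 to 1.80), but its interval in early arousal against late torpor (0.998 to 1.63) holds 1. miR-383-5p had 1234, 718 and 761 reads, with a ratio of 1.35 (1.23 to 1.48). All of them were higher in early arousal than in post-reproduction under every scaling tried.

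miR-7-5p, known from neuroendocrine cells and pancreatic islets, had 2205, 1876 and 2122 reads in early arousal, late torpor and post-reproduction and stayed near miR-128-3p, with 0.401, 0.426 and 0.420 reads per miR-128-3p read. miR-338-3p, an oligodendrocyte miRNA, had 51, 56 and 44 reads in the same order. Fewer than 20 reads per library were found for miR-212-3p (8, 11 and 7), miR-153-3p (9, 10 and 13) and miR-218-5p (6, 13 and 13). miR-488-3p had 1 read in each library, and miR-183-5p had 3, 1 and 0. The other 8, miR-132-3p, miR-137-3p, miR-219a-5p, miR-34c-5p, miR-135a-5p, miR-134-5p, miR-96-5p and miR-182-5p, were listed at 0. A count of 0 allows up to 0.463 CPM in early arousal, 0.597 CPM in late torpor and 0.557 CPM in post-reproduction. This holds only for a miRNA whose locus is in the genome used and whose start, not checked against a database, is right.

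Neural miRNAs with at least 100 reads over both libraries were counted, with miR-9-5p and miR-9-3p as separate entries although they are arms of the same hairpin. In early arousal against post-reproduction, 17.9% of the listed miRNAs had an interval above 1 and 52.6% one below. Of the neural miRNAs, 5 of 8 had an interval above 1 and 3 below it. Those above were miR-9-5p, miR-9-3p, miR-138-5p, miR-129-5p and miR-383-5p, and those below were miR-124-3p, miR-128-3p and miR-7-5p, of which miR-128-3p and miR-7-5p turned above 1 under plain CPM and placed reads. Their median log2 ratio was 0.36, against -0.16 over all listed miRNAs. In late torpor against post-reproduction none of 9 had an interval above 1 and 2 had one below it, against 32.9% and 24.1% of the listed miRNAs, and the median was 0.08, against 0.06 over all listed miRNAs. In early arousal against late torpor 4 of 9 were above and 2 below, against 16.5% and 62% of the listed miRNAs, with a median of 0.20 against -0.28. The pair below, miR-124-3p (0.757) and miR-7-5p (0.912), turned above 1 under plain CPM (1.03 and 1.24) and placed reads (1.02 and 1.23), and miR-7-5p also under listed miRNAs (1.12). The median over all listed miRNAs also changed sign with the scaling. Under plain CPM it was 0.11 in early arousal against post-reproduction and 0.16 in early arousal against late torpor. Under listed miRNAs it was 0.03 and 0.02. The shares of intervals above and below 1 were counted under the main scaling only.

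By the distance between their level profiles over the 3 libraries, among 65 listed miRNAs with at least 100 reads in each, miR-124-3p was nearest to miR-30a-5p, miR-140-3p and miR-378a-3p (root mean square distance 0.04 to 0.05 on the log2 scale). miR-30a-5p had 482 CPM in early arousal, 598 CPM in late torpor and 727 CPM in post-reproduction. miR-9-5p was nearest to miR-181b-5p, miR-181a-5p and miR-15a-5p (0.07 to 0.08). miR-128-3p was nearest to miR-7-5p, miR-103-3p and miR-195-5p (0.04 to 0.06). With 3 libraries such likeness is a description only.

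The 5′ ends of miR-124-3p and miR-128-3p were not the same in all stages. Most reads used the main start, but other starts carried several percent of the reads, and a shifted start moves the seed. The shifted forms of the members are shown for that reason.
miR-124-3p, 1 base earlier, 20 nt: tTAAGGCAcgcggtgaatgc
miR-124-3p, 1 base later, 20 nt: aAGGCACGcggtgaatgcca
miR-9-5p, 1 base later, 22 nt: cTTTGGTTatctagctgtatga
miR-128-3p, 2 bases later, 19 nt: aCAGTGAAccggtctcttt
The later start of miR-124-3p held 142 of 1905 reads in early arousal, 7.45% (6.31% to 8.73%), 95 of 1904 in late torpor, 4.99% (4.06% to 6.07%), and 85 of 2417 in post-reproduction, 3.52% (2.82% to 4.33%). The early arousal interval lay above both others. The earlier start of miR-124-3p held 8.87% in early arousal, 9.45% in late torpor and 9.18% in post-reproduction, and its intervals overlapped. The miR-128-3p start 2 bases later held 222 reads in early arousal, 3.87% (3.39% to 4.40%), 145 in late torpor, 3.18% (2.69% to 3.73%), and 123 in post-reproduction, 2.37% (1.97% to 2.82%). The miR-9-5p start 1 base later held 6.07%, 4.71% and 5.08% in early arousal, late torpor and post-reproduction, with overlapping intervals.

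Reads that start 1 or 2 bases late, as a share of late and main starts, were 8.48% in early arousal, 5.57% in late torpor and 3.92% in post-reproduction for miR-124-3p. For miR-128-3p they were 4.07%, 3.34% and 2.43%, and for miR-9-5p 7.29%, 6.89% and 6.52%. Over 39 listed miRNAs with at least 1000 reads in every library, the share in early arousal minus that in post-reproduction had a median of 0.0252 percentage points and was positive for 27 and negative for 8. The miR-124-3p difference of 4.56 points was above that of 37 of the 39, the miR-128-3p difference of 1.64 points above 35 and the miR-9-5p difference of 0.770 points above 32. In late torpor minus post-reproduction, the miR-124-3p difference of 1.65 points was above that of the other 38. miR-9-3p went the other way, since its later start held 24.6% in early arousal (22.2% to 27.0%), 35.4% in late torpor (32.0% to 38.8%) and 32.6% in post-reproduction (29.3% to 36.1%).

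**Figure D4:**
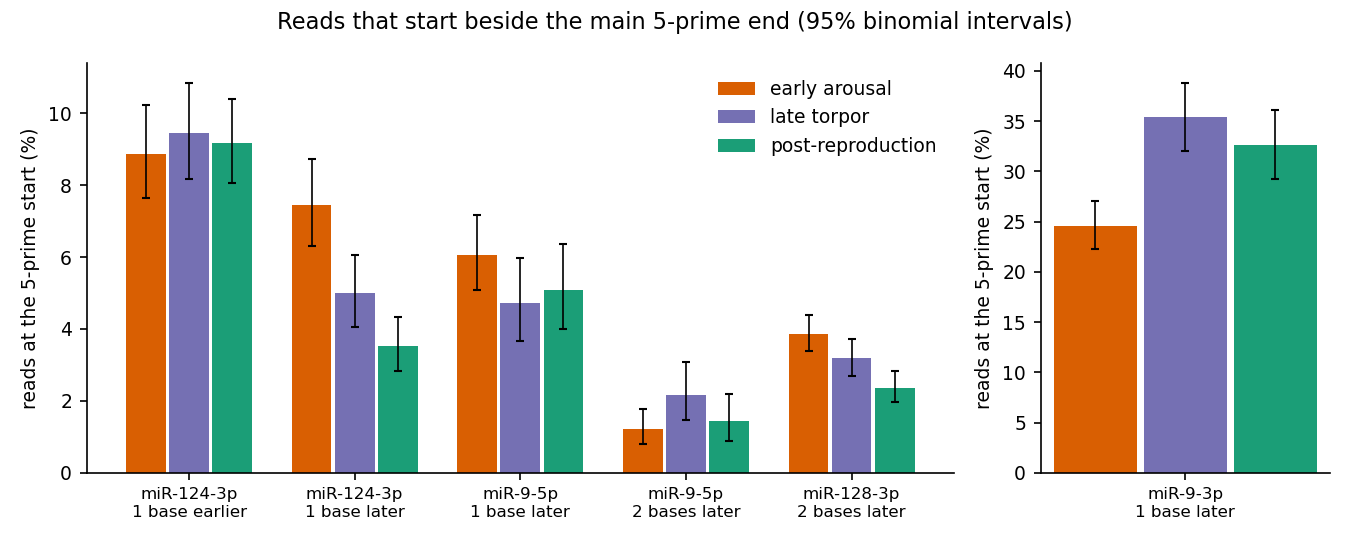
Share of reads that start 1 base earlier, 1 base later or 2 bases later than the main 5′ end, out of the reads with any start within 2 bases, in early arousal, late torpor and post-reproduction, with exact binomial 95% intervals. The later start of miR-124-3p is at 7.45% in early arousal, 4.99% in late torpor and 3.52% in post-reproduction, while that of miR-9-3p, on its own axis, is lowest in early arousal at 24.6%.

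The 3′ ends differed between the miRNAs far more than between the stages. miR-9-5p was most often 23 nt long, in 47.3% of readable inserts in early arousal, 47.4% in late torpor and 46.8% in post-reproduction, with a second peak at 21 nt (30.4%, 29.5% and 31.2%) and less between them at 22 nt (15.2%, 15.3% and 15.1%). miR-128-3p had a single main length of 21 nt, at 61.9% in early arousal, 64.0% in late torpor and 63.1% in post-reproduction, followed by 22 nt (29.2%, 27.1% and 28.4%). miR-124-3p was split between 22 nt (45.8%, 45.3% and 42.8%) and 21 nt (35.1%, 35.5% and 38.6%), in the same order of stages.

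The last base of the 22-nt form of miR-124-3p was not placed on the genome. Whether such unplaced letters were added to the RNA or left out in placing was not tested. The placed part of miR-124-3p reads never exceeded 21 nt in any library, and the next base was most often A. A single unplaced A followed the placed part in 33.6% of readable reads in early arousal (31.2% to 36.1%), 32.6% in late torpor (30.3% to 35.0%) and 31.2% in post-reproduction (29.2% to 33.3%). A single unplaced T followed it in 12.3%, 14.0% and 12.4%, and a single C and a single G each in under 1% of reads in each library. Unplaced tails of any kind were found on 59.4%, 57.4% and 55.7% of miR-124-3p reads, above the share of 33 of 39 listed miRNAs in each library. They were rare on the other members, with 11.4%, 11.2% and 9.19% for miR-9-5p and 13.1%, 10.3% and 10.9% for miR-128-3p, against medians of 28.7%, 27.0% and 25.1% over the 39.

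The kind of unplaced tail also differed between the members. miR-9-5p ended in a single unplaced T in 4.07% of reads in early arousal (3.21% to 5.09%), 6.57% in late torpor (5.25% to 8.10%) and 3.71% in post-reproduction (2.73% to 4.92%), with the late torpor interval above both others. miR-128-3p ended in a single unplaced A in 6.82%, 6.52% and 6.18%, and in an unplaced T in 0, 0 and 1 reads, since its placed part ran on into further T and an added T cannot be told apart there. Tails of 2 or more bases were found on 4.50% of miR-128-3p reads in early arousal (3.96% to 5.08%), 1.97% in late torpor (1.58% to 2.43%) and 2.46% in post-reproduction (2.04% to 2.93%), with the early arousal interval above both others. The shares were 13.2%, 10.3% and 10.6% for miR-124-3p and 3.52%, 2.35% and 3.15% for miR-9-5p, with intervals that overlap between the stages. Among listed miRNAs the share was higher in early arousal than in post-reproduction for 36 of 39, with a median difference of 2.04 points.

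Mean insert lengths were close to each other across the stages. The mean in early arousal minus that in post-reproduction was 0.0707 nt for miR-124-3p, 0.0364 nt for miR-9-5p and 0.0364 nt for miR-128-3p, beside a median of 0.0357 nt over 59 listed miRNAs. In late torpor minus post-reproduction the differences were 0.0258, -0.0124 and -0.00895 nt, beside a median of 0.0330 nt. In early arousal minus late torpor they were 0.0449, 0.0488 and 0.0454 nt, above those of 51, 53 and 52 of the 59, whose median was -0.00694 nt. No counting interval was computed for these small differences. The standard deviations over reads in early arousal were 1.06 nt for miR-124-3p, 1.08 nt for miR-9-5p and 0.676 nt for miR-128-3p.

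**Figure D5:**
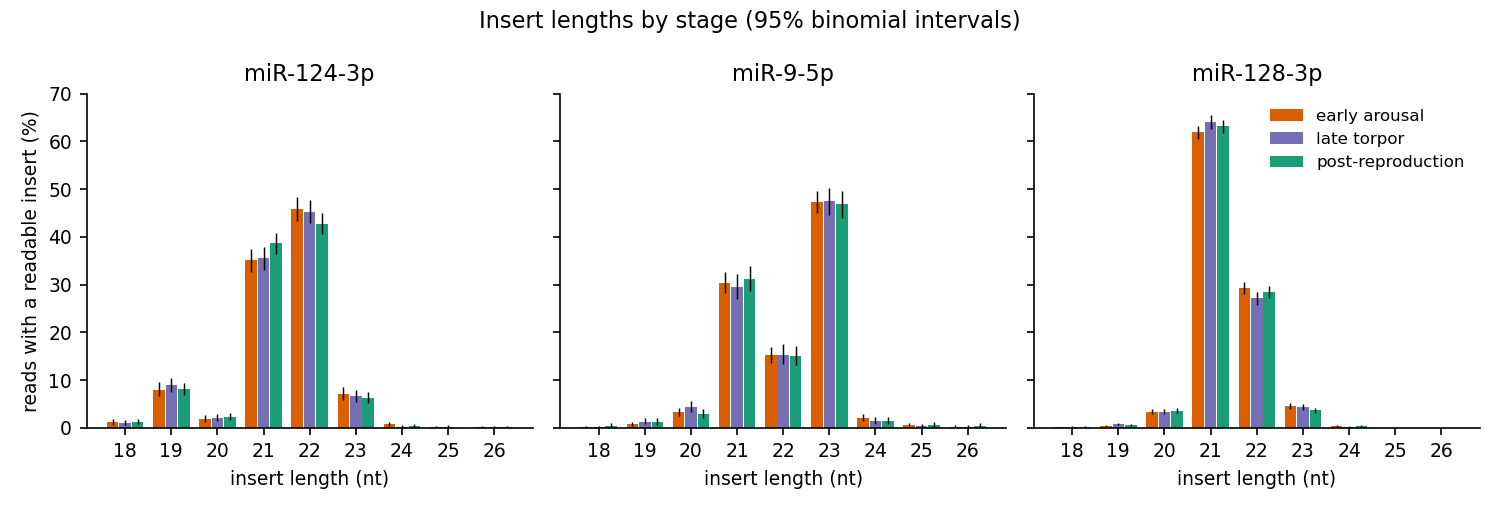
Share of readable inserts at each length from 18 to 26 nt for miR-124-3p, miR-9-5p and miR-128-3p in early arousal, late torpor and post-reproduction, with exact binomial 95% intervals. miR-124-3p peaks at 21 and 22 nt, miR-9-5p at 21 and 23 nt and miR-128-3p at 21 nt, with nearly the same profile in all 3 libraries.

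The number of distinct reads and the share of reads with an undetermined base (N) differed between the libraries. miR-124-3p had 229 distinct reads in early arousal, 170 in late torpor and 327 in post-reproduction, miR-9-5p had 187, 119 and 176, and miR-128-3p had 224, 161 and 275. Reads holding an N were 0.189% to 0.367% of the member reads in early arousal and 0.676% to 1.17% in late torpor, against 4.44% to 5.64% in post-reproduction.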

How the data were processed

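Small RNA of 18 to 30 nt was sequenced after 15 cycles of PCR, per the labels' protocols. The deposited table lists genome positions with read sequences, and per the file headers each entry gives a read, its whole-number read count and its stage, with the placed part of the 30-base read in capitals. Only placed reads are listed. Which aligner, build and read filters were used is not given in the sources used here.

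Members and lists were chosen with earlier results of these data known. The 18-base starts were taken from the reads as the most frequent ones behind the first 9 letters of each mature form. The other 125 miRNA starts were written from general knowledge and not checked against a database. TMM factors (30% trimmed on ratio, 5% on abundance) were computed over 824 families of reads with the same first 18 bases and at least 100 reads, and were 1.18 for early arousal, 0.869 for late torpor and 0.977 for post-reproduction. These families also hold fragments and error copies that are no miRNA. The 3′ adapter was found with up to 1 mismatch in 5 bases. Ratios have exact conditional Clopper-Pearson intervals, shares exact binomial ones and levels exact Poisson ones, at 95%. PCR reads without molecular identifiers are not independent molecules. A difference was called at 1.5-fold. Named miRNAs were the members, the other arms, miR-122-5p, the cell type lists and the 3 nearest profiles. Alternatives covered the scaling, which reads count as a member, the count minimum, the fold limit and the adapter match. The scaling code was tested on simulated data, with equal numbers of families raised and lowered and with counting noise only. Such data cannot decide which scaling is right for these libraries. Python 3.11.15, numpy 2.4.6, scipy 1.17.1 and matplotlib 3.10.9 were used.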

Additional observations from a re-analysis of the deposited data

How the results depend on the processing

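No paired analysis was possible because each stage is 1 library. Of the level ratios under alternatives, 43 stayed within their counting interval and 29 moved; no called value changed sign. The log2 ratios that moved are given in the order plain CPM, all placed reads, TMM over listed miRNAs. For miR-124-3p they were -0.41, -0.41 and -0.49 in early arousal against post-reproduction, -0.44, -0.44 and -0.39 in late torpor against post-reproduction, and 0.0369, 0.0267 and -0.10 in early arousal against late torpor. For miR-9-5p they were 0.55, 0.55 and 0.47, then -0.0910, -0.0853 and -0.0348, then 0.64, 0.63 and 0.51 in the same comparisons. For miR-128-3p they were 0.12, 0.12 and 0.0436, then -0.27, -0.26 and -0.21, then 0.39, 0.38 and 0.26. Counting only the most frequent full-length insert gave -0.81 for miR-124-3p in early arousal against post-reproduction and -0.12 for miR-128-3p in early arousal against late torpor. Plain CPM shifted every log2 ratio by 0.27, -0.17 and 0.44 in the 3 comparisons; the cause was not tested.

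The families past the limit numbered 269, 289 and 215. They became 2122, 2153 and 1882 at a minimum of 10 reads, 43, 37 and 36 at 1000 reads, and 137, 203 and 96 at a 2-fold limit. The share of inserts at the main length changed only when the placed part was used as the length, to 0% for miR-124-3p, 40.4% to 43.6% for miR-9-5p and 11.3% to 12.0% for miR-128-3p, because the placed part stops before unplaced tails and can run into the adapter. Depth limits the other arms of miR-124 and miR-128, and with 1 pooled library a stage no difference can be separated from variation between libraries.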
